A study of Rattus norvegicus with 6 samples.

Results

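miR-126, the microRNA of the Egfl7 gene, was followed in lung tissue of rats after ischemia reperfusion (IR) and of sham-operated rats. Its members were taken from the deposited table by name alone, as every name that is miR-126, miR-126a or miR-126b, alone or with an arm suffix. This gave 3 of the 693 listed miRNAs, namely miR-126a-3p, miR-126a-5p and miR-126b. Small RNA was sequenced from the lungs of 3 IR and 3 sham Sprague-Dawley rats with 1 library per sample. The animals were males of 7 to 8 weeks. In the IR group the left lung hilum was clamped for 45 min under urethane anesthesia and ventilation before blood flow was restored. The sham group had the same chest opening with no clamp. All groups therefore share anesthesia, ventilation and thoracotomy. The sampled lung's side, the length of reperfusion and any batch were not given in the sources used here. Replicates of a group were described as biological and were treated as separate animals, but nothing in the labels says which animal gave which sample.

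miRNAs are short RNAs cut from a folded hairpin. One arm (5p) and the other arm (3p) of the hairpin can each enter the silencing complex, where bases 2 to 8, the seed, choose the target mRNAs. miR-126 lies within Egfl7, a gene for a protein that endothelial cells secrete, and is the best known miRNA of the endothelium. Its 3p arm is known to repress Spred1 and Pik3r2, inhibitors of signalling from the VEGF receptor, and the leukocyte adhesion molecule Vcam1. Its 5p arm is known to repress Dlk1, a modulator of Notch signalling. Blood-forming progenitors and platelets also contain miR-126, so it is not restricted to vessels. The lung, with its dense capillary bed, is a tissue rich in it. Only miRNAs were measured here, so the endothelial origin of the reads could not be checked against endothelial mRNAs.

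The mature sequences show how the 3 names relate to each other. They are written 5′ to 3′ from RefSeq (build GRCr8), with the seed in capitals.
miR-126a-3p: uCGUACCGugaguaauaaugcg
miR-126a-5p: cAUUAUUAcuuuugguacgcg
miR-126b: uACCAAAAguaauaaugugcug
miR-126a-5p lies at chr3:29813182-29813202 and miR-126a-3p at chr3:29813219-29813240, both on the plus strand, with 16 bases between the arms. miR-126b lies at chr3:29813177-29813198 on the minus strand. Egfl7 spans chr3:29802481-29814966 on the plus strand, so all 3 mature miRNAs fall inside the gene, miR-126b in the antisense direction. RefSeq places both arms of miR-126a in the gene with the symbol Mir126b, and miR-126b in Mir126a. The seeds of the 3 differ from each other, and 0 of the other mature rat names in RefSeq carry the seed of any of them.

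miR-126b is in large part the reverse complement of miR-126a-5p, which matters for reading its counts. The shared bases are in capitals in the next lines.
miR-126b: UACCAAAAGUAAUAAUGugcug
reverse complement of miR-126a-5p: cgcgUACCAAAAGUAAUAAUG
The shared stretch is 17 bases long and holds the whole seed of miR-126b. It covers chr3:29813182-29813198. The strand setting of the authors' counting was not given in the sources used here. Full-length reads of miR-126b and miR-126a-5p differ in both end positions, but without strand a read confined to the shared stretch would match both names. Among other rat miRNAs, the nearest to miR-126a-3p differed from it by 9 edits (substitutions, insertions or deletions), and the nearest to miR-126a-5p and to miR-126b by 8. No other listed name had counts within 5% or 2 reads of those of a member in every library.

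The libraries held 3775663 to 11248166 miRNA reads, of which 3 reads correspond to a TPM of 0.267 to 0.795. TPM here means reads per 1000000 miRNA reads of the library, with no term for length. Levels are also given as normalized CPM, in which the library sizes are corrected by TMM scaling. The 2 scales differ most for sham replicate 3, where miR-21-5p alone took 24.2% of the reads (9.66% to 13.5% in the other 5 libraries) and the TMM factor was 0.867 (0.929 to 1.06 in the others). Counts of different miRNAs also depend on how well each is ligated and amplified, so comparisons of levels between miRNAs concern reads and not molecules.

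miR-126a-3p was among the most abundant miRNAs of the rat lung. It took 8.86%, 9.22% and 9.14% of the miRNA reads in sham replicates 1 to 3 and 8.22%, 8.71% and 10.4% in IR replicates 1 to 3. Counting error was small beside these differences, since the widest 95% exact binomial interval, in IR replicate 2, ran from 8.68% to 8.74%. Such intervals cover counting error only, because the reads carry no molecular identifiers. By reads, it was the third most abundant miRNA in all 3 sham libraries and ranked 5, 4 and 2 in IR replicates 1, 2 and 3. With the 5p arm and miR-126b added, the share of miR-126 was 8.75% to 11.1%.

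**Figure D1:**
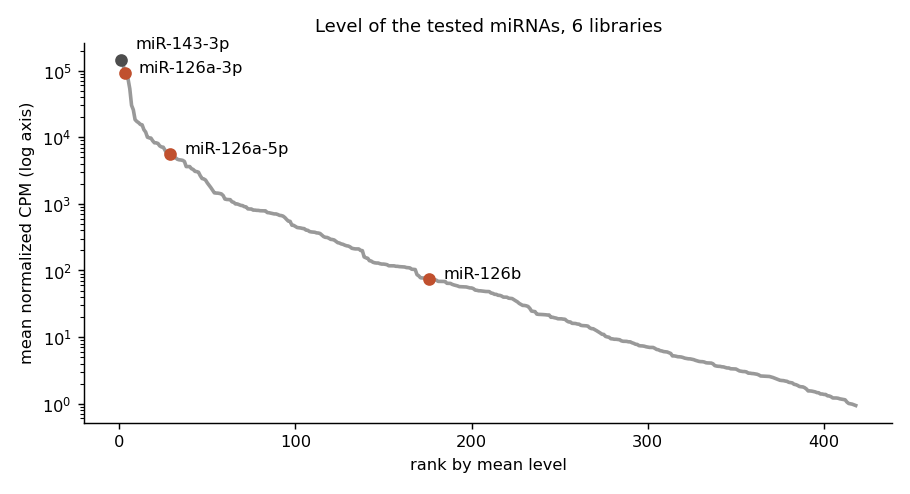
Mean normalized CPM over the 6 libraries (vertical log axis) of the 418 tested miRNAs against their rank (horizontal axis), with miR-126 in red. miR-126a-3p ranks 3, miR-126a-5p ranks 29 and miR-126b ranks 176.

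In normalized CPM, 4 miRNAs surrounded miR-126a-3p in the order of mean levels. Above it were miR-143-3p, the main miRNA of smooth muscle, and the inflammation-responsive miR-21-5p. miR-143-3p was higher than miR-126a-3p in 6 of 6 libraries, with a mean log2 difference of miR-126a-3p from it of -0.67 ± 0.22 (SD, n = 6). miR-21-5p was higher in 5 of 6, and the mean difference of -0.52 was close to its SD of 0.50. Below it, miR-30a-5p was lower in 4 of 6 libraries with a mean difference of 0.17 ± 0.30, so the order of these 2 neighbours is not resolved. miR-26a-5p was lower in 5 of 6, with a mean difference of 0.27 ± 0.20.

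The other members were much less abundant. miR-126a-5p took 0.507%, 0.661% and 0.501% of reads in sham replicates 1 to 3 and 0.526%, 0.442% and 0.732% in IR replicates 1 to 3. Its neighbours in rank, let-7a-5p (whose reads are also listed as miR-3596a) and miR-34c-5p, a miRNA of ciliated airway cells, differed from it by mean log2 values of -0.04 ± 0.29 and 0.06 ± 0.40 (SD, n = 6), within their spread. miR-27a-3p was lower in 5 of 6 libraries, by 0.18 ± 0.14. miR-126b had 447, 1090 and 553 reads in sham replicates 1 to 3 and 406, 203 and 1280 in IR replicates 1 to 3. Around it stood miR-92b-3p, miR-339-3p, miR-29c-5p and miR-378a-5p, each with a mean log2 difference smaller than its SD. The SD of 0.73 for miR-29c-5p includes a difference between the groups, from 46.0 normalized CPM in sham to 101 after IR (adjusted p = 0.0198 by the quasi-likelihood test of edgeR).

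The comparison of IR with sham asks whether lung injury of this kind was accompanied by a different level of miR-126. No member was called. The test was edgeR's quasi-likelihood test on the counts of the 418 miRNAs that passed a filter on low counts, with an adjusted p (Benjamini-Hochberg) under 0.05. All 3 members passed the filter. Of the 418 miRNAs, 10.5% were called, 7.89% as higher and 2.63% as lower after IR. Some of the 418 names carry the same or nearly the same counts, among them the called miR-369-5p and miR-3578, and miR-1-3p and miR-3571. These shares are therefore of names and not of distinct miRNAs. 0 of 3 members were called by edgeR, DESeq2, limma-voom or limma-trend, and 0 had an unadjusted p under 0.05 from edgeR, which 26.3% of the 418 had (14.1% higher and 12.2% lower after IR). The 44 calls over all miRNAs rest on few libraries, since 2 were left without IR replicate 3, 17 without IR replicate 2, 21 without sham replicate 3 and 24 without IR replicate 1. In bulk tissue, fewer cells of a type and less RNA per cell cannot be told apart.

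miR-126a-3p had 83307, 87662 and 105445 normalized CPM in sham replicates 1 to 3 and 78154, 93782 and 98450 in IR replicates 1 to 3. The lowest value was in an IR library and the highest in a sham library, and the groups overlapped. The mean was 92138 ± 11728 for sham and 90129 ± 10630 for IR (SD, n = 3 each). The log2 fold change was -0.03 with a standard error of 0.16 (adjusted p = 0.932 by the quasi-likelihood test of edgeR). Its 95% interval of -0.40 to 0.34 corresponds to 0.755-fold to 1.27-fold. The interval holds the changes compatible with these data, among them no change. It is not a limit of detection at the adjusted threshold. On the TPM scale the sham libraries lay closer together, at 88624, 92232 and 91366. The IR libraries, at 82175, 87129 and 103869, lay on both sides of them. The means were 90741 ± 1883 and 91058 ± 11368 TPM (SD, n = 3 each). The sign of the small difference thus depended on the scaling.

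miR-126a-5p had 4765, 6284 and 5776 normalized CPM in sham replicates 1 to 3 and 5005, 4761 and 6936 in IR replicates 1 to 3. IR replicate 3 and sham replicate 2 were the highest of the 6, and again the groups overlapped. The mean was 5608 ± 774 for sham and 5567 ± 1191 for IR (SD, n = 3 each). The log2 fold change was -0.01 with a standard error of 0.18 (95% interval -0.43 to 0.41, adjusted p = 0.993 by the quasi-likelihood test of edgeR).

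miR-126b had 56.3, 96.7 and 61.9 normalized CPM in sham replicates 1 to 3 and 61.3, 57.9 and 107.9 in IR replicates 1 to 3. The same pair of libraries, sham replicate 2 and IR replicate 3, stood above the other 4. The means were 71.6 ± 21.8 and 75.7 ± 27.9 (SD, n = 3 each), with a log2 fold change of 0.08 and a standard error of 0.31 (adjusted p = 0.900 by the quasi-likelihood test of edgeR). The 95% interval of -0.63 to 0.80, or 0.645-fold to 1.74-fold, was the widest of the 3 members.

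**Figure D2:**
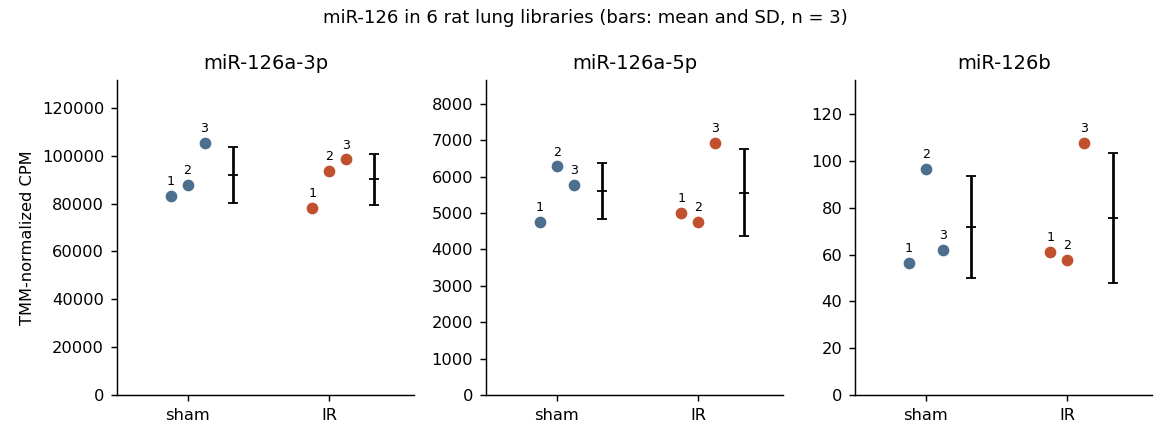
TMM-normalized CPM (vertical axes from 0) of the 3 miR-126 names in each sham (blue) and IR (red) library, numbered by replicate, with the mean and SD of each group (n = 3) as black bars. The groups overlap for each name, and sham replicate 2 and IR replicate 3 are the highest for miR-126a-5p and miR-126b.

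The spread between libraries of a group differed among the members. On log2(normalized CPM + 1), the SD within groups was 0.18 for miR-126a-3p, 0.25 for miR-126a-5p and 0.45 for miR-126b, against a median of 0.27 over the 418 tested miRNAs. 108 of the 418 had a smaller SD than miR-126a-3p, 187 a smaller one than miR-126a-5p and 333 a smaller one than miR-126b. Among the 50 most abundant miRNAs the median SD was 0.20, so miR-126a-3p was about as steady as its abundance class. The absolute log2 fold change was smaller than that of miR-126a-3p in 23 of the 418 miRNAs, and smaller than that of miR-126a-5p in 13. The median of the absolute log2 fold changes over all tested miRNAs was 0.33.

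The ratio of the arms within a library needs no scaling between libraries, and it asks whether the use of the hairpin differed. Most reads of the hairpin came from the 3p arm. The 5p arm made up 5.41%, 6.69% and 5.19% of the reads of both arms in sham replicates 1 to 3. In IR replicates 1 to 3 it made up 6.02%, 4.83% and 6.58%. The widest 95% exact binomial interval, in IR replicate 2, was 4.76% to 4.90%, so libraries of the same group differed by more than counting error. The mean was 5.76% ± 0.81 for sham and 5.81% ± 0.89 for IR (SD, n = 3 each).

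The mean log2 ratio of 5p to 3p was -4.04 in sham and -4.03 after IR. The difference of 0.01 had a standard error of 0.23 and a 95% interval of -0.52 to 0.54 (adjusted p = 0.994 from limma over 116 hairpins with both arms tested). The exact two-sided permutation test over the 6 libraries gave p = 1, where the smallest p that 3 against 3 allow is 0.1. Of the 116 hairpins, 0 (0%) were called by limma and 10 (8.62%) had an unadjusted p under 0.05. Some hairpins hold nearly the same reads under another name, such as miR-378a and miR-3557, with differences of 0.053 and -0.052. Only 4 hairpins had a smaller absolute difference than miR-126a. The differences ran from -1.67 in miR-21 to 1.76 in miR-132, with a median absolute difference of 0.24. A 3p arm with more reads, as in miR-126a, was found in 44 hairpins, and 63 of the 116 were more unequal in either direction than miR-126a.

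**Figure D3:**
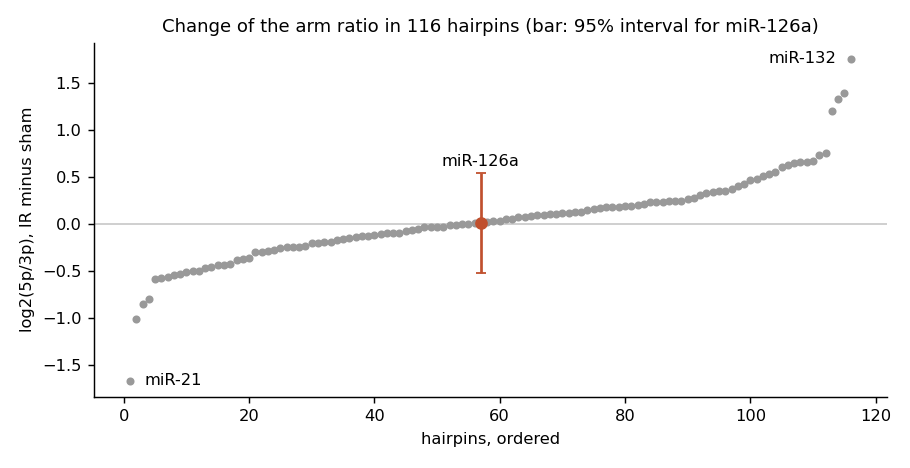
Difference between IR and sham in the mean log2 ratio of 5p to 3p reads (vertical axis) for 116 hairpins in order of that difference (horizontal axis). miR-126a, in red with its 95% interval of -0.52 to 0.54, lies at 0.01, between miR-21 at -1.67 and miR-132 at 1.76.

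By library, the arm ratio of miR-126a lay above its mean over the 6 libraries in sham replicate 2, IR replicate 3 and IR replicate 1, by 0.23, 0.21 and 0.07 on the log2 scale. It lay below it in sham replicates 1 and 3 and in IR replicate 2, at -0.09, -0.15 and -0.26. The median hairpin deviated the opposite way in each of these libraries, at -0.09, -0.12 and -0.06 in the first 3 and at 0.01, 0.01 and 0.12 in the others. The shift toward the 5p arm in sham replicate 2 and IR replicate 3 was therefore not a shift of all hairpins.

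miR-126b, annotated as antisense, followed miR-126a-5p more closely than it followed miR-126a-3p. Without the strand setting, reads confined to the stretch that miR-126b shares with miR-126a-5p could count for either name. Their part in this likeness was not tested. As a share of the reads of miR-126b and miR-126a-5p together, it made up 1.17%, 1.51% and 1.06% in sham replicates 1 to 3. In IR replicates 1 to 3 the share was 1.21%, 1.20% and 1.53%. The 95% exact binomial intervals of sham replicate 2 (1.43% to 1.61%) and IR replicate 3 (1.45% to 1.62%) lay above those of the other 4 libraries, of which the highest bound was 1.38%. The ratio was thus near but not constant, and it was highest in the libraries where miR-126a-5p was highest. The mean log2 ratio was -6.32 ± 0.27 for sham and -6.24 ± 0.20 for IR (SD, n = 3 each), a difference of 0.08 (exact two-sided permutation test, p = 0.5, smallest possible p 0.1). Against miR-126a-3p the mean log2 ratio was -10.4 ± 0.48 in sham and -10.3 ± 0.41 after IR (exact two-sided permutation test, p = 0.8).

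Over the 6 libraries, on log2(normalized CPM + 1), Pearson's r between miR-126a-5p and miR-126b was 0.93 (Spearman's rho 0.94). Without the 2 libraries farthest from the median of miR-126a-5p it was 0.80. Between the arms of miR-126a, r was 0.50 (rho 0.37), and 0.52 without the 2 libraries farthest from the median of miR-126a-3p. Between miR-126a-3p and miR-126b it was 0.24 (rho 0.49), and 0.49 without those 2 libraries. The values for miR-126a-3p depended on the scaling. On log2(TPM + 1), an alternative chosen after seeing the data, r was 0.76 between the arms, 0.72 between miR-126a-3p and miR-126b and 0.98 between miR-126a-5p and miR-126b. These values describe 6 libraries that also share scaling and depth differences.

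On the normalized CPM scale, the profile of miR-126a-3p over the 6 libraries was most like that of miR-499-5p (r = 0.94), a miRNA of striated muscle. miR-652-5p, at only 1.21 to 3.14 normalized CPM, and miR-340-3p, at 40.9 to 77.4, followed, each at r = 0.86. Next came miR-378a-3p, at r = 0.82 and 3058 to 4194 normalized CPM, whose reads are also listed as miR-3557-5p. Most like miR-126a-5p were miR-24-2-5p (r = 0.95), the epithelial miR-141-3p (r = 0.93), miR-126b, miR-27a-3p (r = 0.92) and miR-33-5p (r = 0.91). miR-24-2 and miR-27a belong to one hairpin cluster. miR-24-3p, miR-33-5p and miR-141-3p were also the most like miR-126b, at r = 0.98, 0.97 and 0.95. None of the miRNAs of similar profile was called in IR against sham, with adjusted p from 0.470 to 0.997 (edgeR's quasi-likelihood test). They were picked for likeness to members with little difference between the groups, so this follows largely from the choice. By the same choice, those most like miR-126a-5p and miR-126b shared the high values of sham replicate 2 and IR replicate 3, on the TPM scale as well. miR-126a-3p and miR-499-5p were highest in sham replicate 3 in normalized CPM but in IR replicate 3 in TPM. Which library is highest for them thus depends on the TMM factor of sham replicate 3. The ratio of miR-126a-5p to miR-126a-3p within a library does not depend on the scaling. On log2(TPM + 1), r with miR-126a-3p was 0.79 for miR-499-5p, 0.78 for miR-378a-3p, 0.65 for miR-652-5p and 0.52 for miR-340-3p. The most like miR-126a-3p on that scale were miR-674-5p (r = 0.92) and miR-219a-1-3p (r = 0.86), and miR-652-5p and miR-340-3p ranked 16 and 35. The list for miR-126a-3p thus depended on the scaling, whereas the names most like miR-126a-5p stayed the same.

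**Figure D4:**
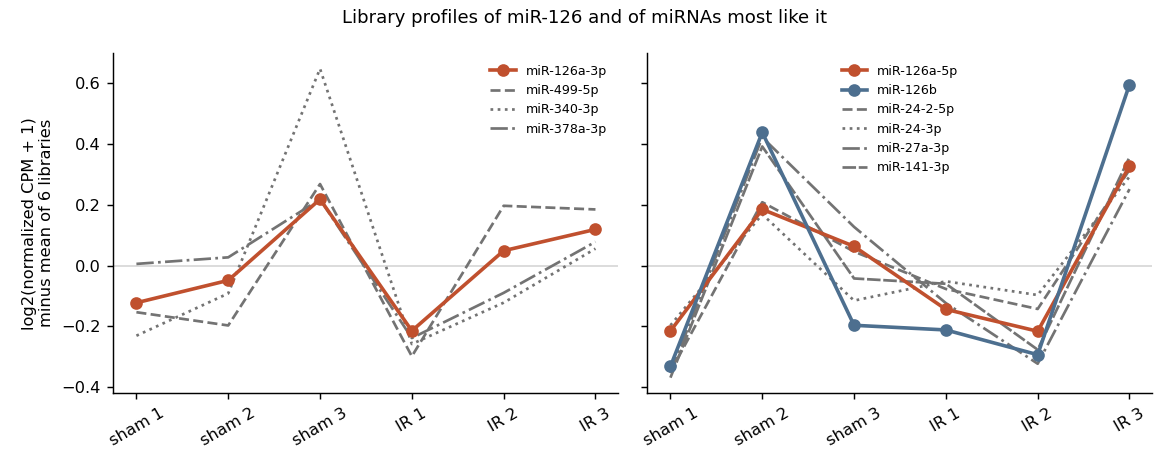
Log2(normalized CPM + 1) minus the mean over 6 libraries (vertical axis) in each library (horizontal axis), for miR-126a-3p (left, red) and for miR-126a-5p and miR-126b (right, red and blue), with miRNAs of similar profile as grey lines. On this TMM scale the values on the left are highest in sham replicate 3 and those on the right in sham replicate 2 and IR replicate 3, whereas in TPM miR-126a-3p is highest in IR replicate 3.

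To set miR-126 beside other miRNAs of vessels, 17 further miRNAs that are abundant or studied in endothelial cells were examined. None of them is restricted to endothelium. All 17 were tested, of which 1 was higher and 2 were lower after IR, against 7.89% higher and 2.63% lower over all tested miRNAs. At an unadjusted p under 0.05 from edgeR, 2 of the 17 were higher and 3 lower, against 14.1% and 12.2% of all tested miRNAs. The median log2 fold change of the 17 was -0.01, and that of all 418 was also -0.01. miR-139-5p rose by 0.60 on the log2 scale, from 535 ± 32.3 to 809 ± 72.9 normalized CPM (adjusted p = 0.0260 by the quasi-likelihood test of edgeR). miR-92a-3p, a miRNA of the miR-17~92 cluster that restrains vessel growth, fell by 0.73, from 1172 ± 128 to 709 ± 20.6 normalized CPM (adjusted p = 0.0203 from the same edgeR test). miR-23a-3p fell by 0.59, from 5411 ± 583 to 3585 ± 550 normalized CPM, close to the threshold (adjusted p = 0.0494 from edgeR).

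The most abundant of the 17 were not called. Their log2 fold changes were 0.44 for miR-10a-5p, -0.01 for miR-27b-3p, 0.21 for miR-99b-5p and 0.10 for miR-24-3p, which is made from the same hairpin clusters as miR-23 and miR-27. The 3 calls of the list became 1 without sham replicate 1 or IR replicate 2, and 0 without IR replicate 1 or IR replicate 3. The summed level of the 17 was 74113 to 84476 normalized CPM in the sham libraries and 84506 to 91361 in the IR libraries. The single miR-126a-3p thus had about as many reads as the 17 together, with a log2 ratio to their sum of 0.05 to 0.51 in sham and -0.23 to 0.22 after IR.

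**Figure D5:**
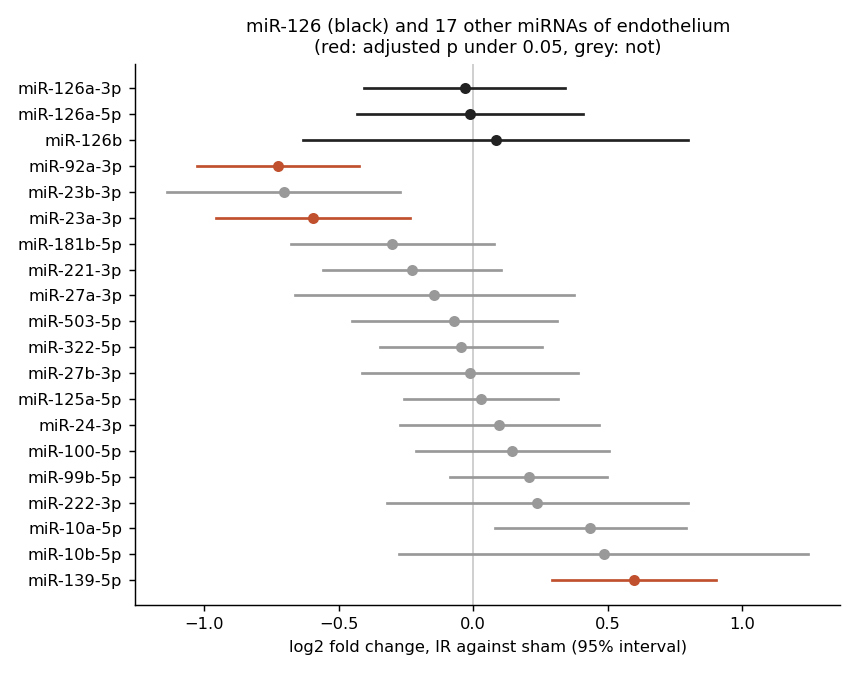
Log2 fold change of IR against sham with its 95% interval (horizontal axis) from edgeR, 3 libraries per group, for miR-126 (black) and 17 other miRNAs of endothelium. The 3 intervals of miR-126 span 0, and miR-92a-3p, miR-23a-3p and miR-139-5p (red) have an adjusted p under 0.05.

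Markers of other lung cells gave the setting of these values. All markers of smooth muscle (4), epithelium (5), leukocytes (4) and erythroid cells (4) had reads in every library. In smooth muscle, led by miR-143-3p, 0 of 4 were called by edgeR, also at an unadjusted p under 0.05, and the log2 ratio of miR-126a-3p to their sum was -0.93 to -0.34 in sham and -0.85 to -0.69 after IR. The smooth muscle sum was 133750 to 163120 normalized CPM in sham and 141113 to 161068 after IR. In the epithelial miR-200 list, led by miR-200a-3p, 0 of 5 were called by edgeR, and 2 were higher at an unadjusted p under 0.05, against 14.1% of all tested miRNAs. Their sum was 12890 to 15883 normalized CPM in sham and 18673 to 19223 after IR.

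In the leukocyte list 1 of 4, the lymphocyte miR-150-5p, was lower, against 2.63% of all tested miRNAs. At an unadjusted p under 0.05, 3 of 4 were lower, against 12.2%. The sum of the list was 3056 to 4266 normalized CPM in sham and 2169 to 2479 after IR. In the erythroid list, led by miR-451-5p, 0 of 4 were called by edgeR and 2 were lower at an unadjusted p under 0.05, again against 12.2%, with a sum of 1233 to 4048 normalized CPM in sham and 1493 to 2155 after IR. Relative to these sums, the log2 ratio of miR-126a-3p was 2.46 to 2.79 in sham and 2.02 to 2.40 after IR for epithelium. For leukocytes it was 4.53 to 4.77 in sham and 5.15 to 5.43 after IR. These 2 ratios did not overlap between the groups and went in opposite directions, whereas the ratios to smooth muscle and to erythroid markers (4.70 to 6.08 in sham, 5.44 to 6.04 after IR) overlapped. Levels of 34.0% of the tested miRNAs did not overlap between the groups, and the 2 ratios were given no test of their own. The part of cell composition in the level of miR-126 was not tested.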

How the data were processed

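Small RNA of 3 IR and 3 sham rat lungs was analysed. The authors deposited read counts per miRNA and library and a TPM value for each count, which is the count per 1000000 listed miRNA reads of the library. Bowtie is named in the submitters' processing notes. Not given in the sources used here: build, annotation, counter, strand setting and how multiply matching reads were handled. 0 value columns were left without a sample.

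In R 4.3.3, edgeR 4.0.16 filtered the counts (filterByExpr, minimum count 10, minimum total 15), scaled them by TMM and tested IR against sham by quasi-likelihood. Standard errors are the fold change divided by the square root of F, and 95% intervals use the degrees of freedom of that test. Log2 arm ratios (pseudocount 0.5 reads) were fitted with limma 3.58.1. The procedures were tested on simulated data with changes larger than those of miR-126. How well they find small changes was not tested. DESeq2 1.42.0 and the other alternatives are given in the closing section. p-values from edgeR and limma set the difference between the groups against the spread between these samples, moderated over all tested miRNAs or hairpins. Those of the permutation test give the share of group assignments of the 6 libraries with an absolute difference at least as large. The members, lists and tests were chosen with earlier results of these data known. Named miRNAs are the members, their neighbours in rank, the 5 of most similar profile, the called and the 4 most abundant of the endothelial list, and the leaders of marker lists. Correlations on TPM, the profile list of miR-126b and the naming of miR-21 and miR-132 in the arm comparison were added after seeing the values.

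RefSeq (GRCr8) mature sequences matched 570 of the 630 named rat miRNAs. Sequences were compared with edlib 1.3.9.post1, and figures were drawn with matplotlib 3.10.9. The build of the authors is not known, so no coordinate was joined to the counts. qPCR and cell culture were not analysed here.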

Additional observations from a re-analysis of the deposited data

How the results depend on the processing

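The 3 members were not called in any of the 15 other settings. The fold changes are so near 0 that their sign is not stable. For miR-126a-3p the log2 fold change was 0.0051 with total counts as scaling, 0.045 with TMM without miR-21-5p, 0.0010 with no filter and 0.021 with 10 reads in every library. For miR-126a-5p it was 0.027, 0.058, 0.019 and 0.044 in the same order, and 0.0074 with limma-trend on log2(TPM + 1). With 1 library left out it ran from -0.11 to 0.066 for miR-126a-3p, from -0.15 to 0.11 for miR-126a-5p and from -0.22 (without IR replicate 3) to 0.38 (without sham replicate 2) for miR-126b. The change of the arm ratio ran from -0.092 to 0.14, and that of miR-126b to miR-126a-5p from -0.033 to 0.23. The adjusted p of the members over these settings was 0.410 or higher. The number of called miRNAs was 26 of 341 with 10 reads in every library and 69 of 505 with DESeq2, and ran from 2 (without IR replicate 3) to 57 (without sham replicate 2) with 1 library left out. The list of 17 had 0 to 2 calls in those 6 fits. The other settings, apart from the replicate block, kept both counts within 1.5 times.

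Libraries with the same replicate number did not deviate together (correlations -0.23, -0.39 and -0.18 over the tested miRNAs), so the number was not taken as a pairing. With the replicate number as a block, edgeR called 0 miRNAs (84 at an unadjusted p under 0.05) and 0 of the list of 17. With 3 libraries a group, these data do not tell a change of miR-126 inside the stated intervals from no change.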
